A study of Drosophila melanogaster with 4 samples.

Results

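Smc3 clusters, the regions that the authors called as enriched for the cohesin subunit Smc3, were described along chromosome arm 3R of Drosophila melanogaster. A cluster was a member when it lay on 3R with its midpoint between positions 1 and 26905053 of FlyBase release 5, so the last 1 Mb at the telomeric end of the 27905053 bp sequence was left out. Replicate 1 held 1263 such clusters of 7858 in its whole list, replicate 2 held 1002 of 6505, and the authors' replicate-set list held 3052 of 15783. The series consisted of 2 Smc3 ChIP-seq samples and 2 Input samples from wild-type larvae of instar 3 of the strain Oregon-R, with no other genotype or treatment. The antibody, Q2580, was an affinity-purified rabbit polyclonal raised against residues 321 to 420 of Smc3. Samples were grouped by title, since the free-text description of ChIP replicate 2 names input DNA only, while its title and source name call it ChIP. The chromatin came from whole larvae, so binding in few cells and weak binding in many cells cannot be told apart. No values of the Input samples were used here.

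Cohesin is a ring of the subunits Smc1, Smc3, Rad21 and SA that holds sister chromatids together and forms chromatin loops. In cultured Drosophila cells, cohesin and its loader Nipped-B are known to lie mostly at transcribed genes and to be scarce over most chromatin silenced by Polycomb proteins. Arm 3R carries both Hox gene complexes of the fly, clusters of homeotic genes that set segment identity and are well-known targets of Polycomb silencing.

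On 3R the clusters were short and scattered. They took up 9.51% of the bases in replicate 1 and 6.68% in replicate 2, a mean cover of 8.10% ± 2.00 (SD, n = 2). Replicate 1 had 46.9 clusters per Mb and replicate 2 had 37.2 per Mb, a ratio of 1.26 in number. The median width was 1988 bp in replicate 1 and 1641 bp in replicate 2, and the narrowest cluster of each list was 1301 bp wide. Widths varied little, with quartiles of 1660.5 and 2084 bp in replicate 1 and of 1447 and 1968 bp in replicate 2. Clusters of at least 5 kb numbered 7 in replicate 1 and 5 in replicate 2. The widest of replicate 1 was 7606 bp long, from 17409506 to 17417111, and that of replicate 2 was 9738 bp long, from 12840 to 22577 at the centromeric end. The cluster score, which the authors deposited and which reads as a log2 value, had a mean of 0.69 ± 0.24 (SD over clusters) in replicate 1 and 0.67 ± 0.17 in replicate 2. Scores reached 2.25 in replicate 1 and 1.96 in replicate 2, and were read only within their own list. Wider clusters tended to score higher, with a Spearman correlation across clusters of 0.573 in replicate 1 and 0.305 in replicate 2.

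Neighbouring clusters lay a median of 10887.5 bp apart in replicate 1 and 14649 bp apart in replicate 2. The spread of this spacing was wide. The lower and upper quartiles of the gaps were 3521.5 and 25812.5 bp in replicate 1, and 5202 and 33560 bp in replicate 2. Gaps of at most 1 kb made up 9.90% of 1262 gaps in replicate 1 and 7.49% of 1001 gaps in replicate 2. At the other end, 20 gaps of replicate 1 and 32 of replicate 2 exceeded 100 kb. The longest gap of replicate 1 ran for 248525 bp, from 20604364 to 20852888, and that of replicate 2 for 246200 bp, from 25283310 to 25529509. The longest stretch with no cluster of either replicate, 185483 bp from 20667406 to 20852888, lay inside the longest gap of replicate 1. The replicate-set list had 5 clusters touching this stretch.

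The other long arms were measured outside the 2 Mb nearest the centromere and the distal 1 Mb, and no test of the differences was made, since arms and clusters are not replicates. Measured the same way, 3R had 47.3 clusters per Mb in replicate 1, against 44.5 on 2L, 43.5 on 3L, 49.4 on 2R and 68.3 on X. In replicate 2 it had 35.9 per Mb, against 46.1, 34.5, 31.2 and 38.0. In replicate 1 the X stood apart, with cover of 14.7% against 9.57% on 3R and 8.87% to 10.4% on the other 3 arms. In replicate 2, cover was 6.36% on 3R and between 5.73% and 8.29% on the other 4 arms. The mean score was 0.69 on 3R in replicate 1 and between 0.68 and 0.83 on the other 4 arms, and in replicate 2 it was 0.66 on 3R and between 0.69 and 0.73 elsewhere.

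Cover was then taken in 269 fixed windows of 100 kb. Per window it ran from 0% through a median of 8.96% to 25.5% in replicate 1, and from 0% through 5.77% to 36.0% in replicate 2. Replicate 1 was the higher of the 2 in 187 windows and replicate 2 in 80. The windows held up to 12 clusters in replicate 1 and up to 16 in replicate 2, and 6 windows of replicate 1 and 14 of replicate 2 held none. The variance of the number per window was 1.45 times its mean in replicate 1 and 1.77 times in replicate 2, both above the ratio of 1 of an even, independent scatter. The profiles of the replicates resembled each other only weakly. The Spearman correlation of cover across the 269 windows was 0.245 and Pearson's was 0.183, and Spearman's was 0.00323 with windows of 500 kb. The values are given as a description because neighbouring windows of 1 chromosome share base composition and the extent to which reads can be placed.

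**Figure D1:**
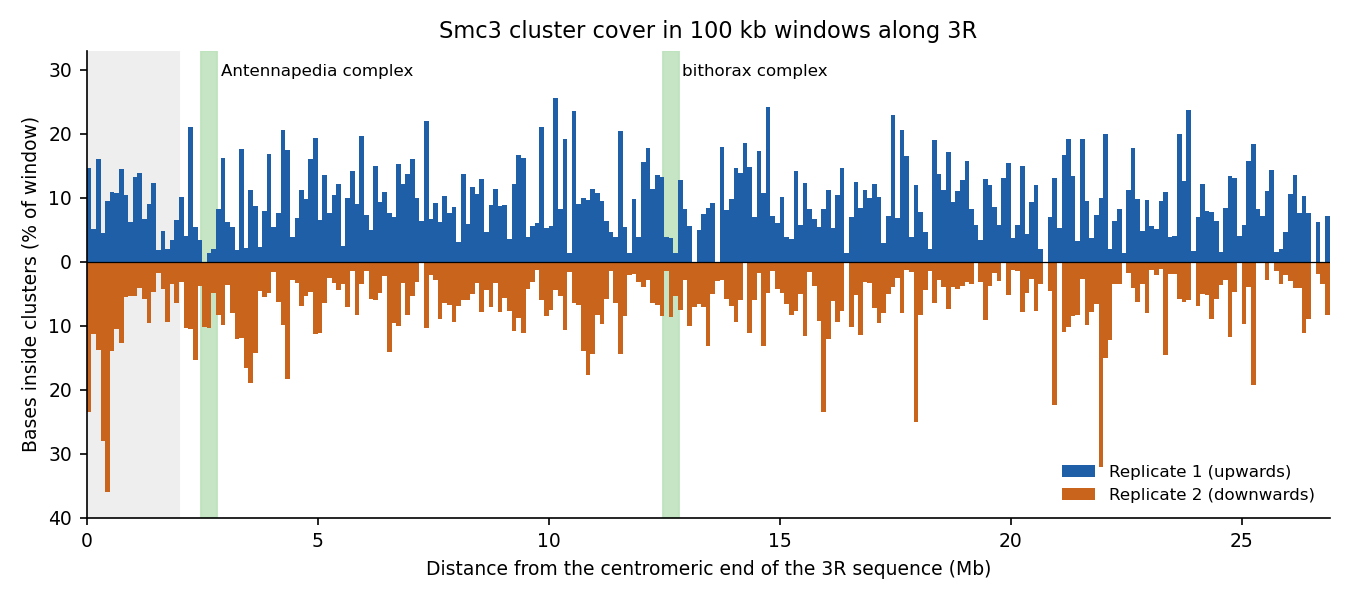
Percent of bases inside Smc3 clusters in each 100 kb window along 3R, by distance from the centromeric end of the sequence in Mb, with replicate 1 drawn upwards and replicate 2 downwards. Grey marks the low 2 Mb and green the Hox intervals. The highest window of replicate 2, at 36.0%, lies near the centromeric end, where replicate 1 has 9.47%.

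The window with the highest mean cover was the one from 400001 to 500000, at 9.47% in replicate 1 and 36.0% in replicate 2. The next, from 21900001 to 22000000, was covered to 9.91% and 32.0%. Both owed their place to replicate 2. The window from 1 to 100000 had 14.7% and 23.4%, and that from 17900001 to 18000000 had 12.0% and 25.0%. In the window from 25200001 to 25300000 the replicates were close, at 18.5% and 19.3%. This window held 9 clusters of each replicate and, like the one from 17900001, 6 loci called in both, the most of any window. Of the 27 windows with the highest cover in each replicate, 4 were the same, which is 14.8% of either set, where 27 windows are 10.0% of all. Besides the window at 25200001 these began at 4300001 (17.4% and 18.3%), 11500001 (20.5% and 14.4%) and 22000001 (20.0% and 15.1%).

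The emptiest windows were those from 20700001 to 20800000 and from 26500001 to 26600000, with no base in a cluster of either replicate and 1.04% and 1.82% in the replicate-set list. The 3 windows next to these in mean cover, beginning at 16400001, 22400001 and 23900001, each held 1 cluster of replicate 1 and none of replicate 2. Over longer blocks, replicate 1 changed little along the arm, from 43.0 clusters per Mb in the low 2 Mb to 49.6 per Mb between 5 and 10 Mb and 40.9 per Mb beyond 25 Mb. Replicate 2 had 53.5 per Mb in the low 2 Mb and 47.7 per Mb from 2 to 5 Mb. It then had between 34.2 and 36.6 per Mb in the 4 blocks from 5 to 25 Mb, and 25.7 per Mb beyond. The replicates therefore differed in the trend along the arm, replicate 2 being densest at the centromeric end.

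The centromeric end is the low end of the 3R sequence, which borders pericentric heterochromatin. Its low 2 Mb was covered to 8.83% in replicate 1 and 10.7% in replicate 2, against 9.57% and 6.36% beyond. The difference was −0.74 percentage points in replicate 1 and 4.38 in replicate 2, a mean of 1.82 ± 3.62 (SD, n = 2) that is smaller than the spread between the replicates. With a low end of 1 Mb the mean difference was 5.24 points, and with 500 kb it was 8.28. Within the low 2 Mb, the excess of replicate 2 lay mostly in the first 600 kb, a limit set after the values were seen. There replicate 2 was covered to 21.0% with 93.3 clusters per Mb, and its 6 windows ranged from 11.3% to 36.0%, each above the median of that list. Replicate 1 was covered to 10.1% with 50.0 clusters per Mb, with 4 of the 6 windows above its median. The replicate-set list was covered to 40.8% over the same 600 kb, against 19.7% beyond 2 Mb. From 600 kb to 2 Mb the cover was 8.27% in replicate 1 and 6.32% in replicate 2, close to the rest of the arm in each. From 2 to 5 Mb it was 9.02% and 8.56%, which in replicate 2 was above the 6.36% of all sequence beyond 2 Mb. The first 600 kb held 17 loci called in both replicates, which took in 63.3% of the 30 clusters of replicate 1 there (43.9 to 80.1, 95% exact binomial interval) and 30.4% of the 56 of replicate 2 (18.8 to 44.1). Beyond 2 Mb the shares were 34.6% and 46.3%, so the share was above the arm in replicate 1 and below it in replicate 2. The same loci make up a larger share of 30 clusters than of 56, so the shares also reflect the sizes of the lists. The overlap to be had from density alone was not estimated. The last 500 kb of the low 2 Mb, also picked after the values were seen, was sparse in both replicates, at 3.73% and 5.01%.

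**Figure D2:**
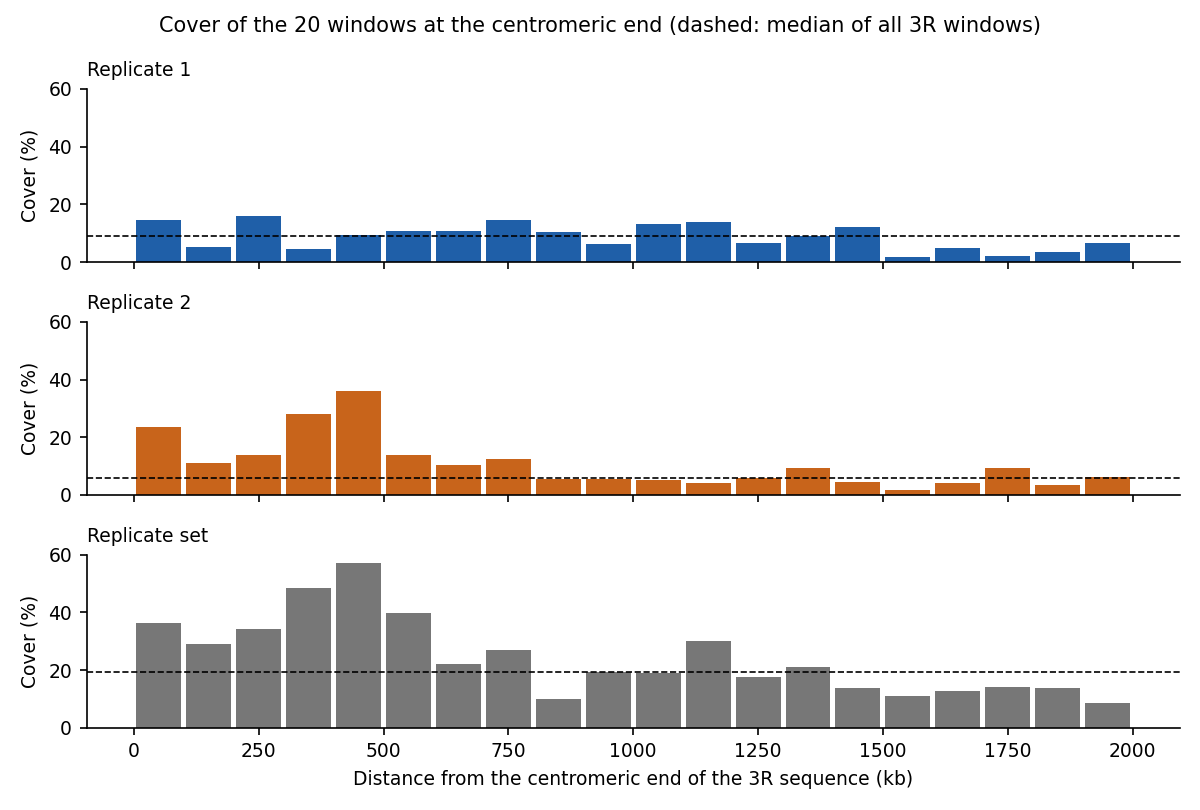
Percent of bases inside clusters in the 20 windows of 100 kb at the centromeric end of 3R, by distance from the end of the sequence in kb, for replicate 1, replicate 2 and the replicate-set list, with the median of all 3R windows of each list dashed. All 6 windows of the first 600 kb stand above the median in replicate 2 and in the replicate set. In replicate 1, 4 of the 6 do, and the highest is at 16.1%.

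In the first 600 kb the clusters of replicate 2 had a median score of 0.77, at the median percentile 78.2 of that list on 3R, while those of replicate 1 had a median of 0.65, at percentile 51.5. Between 600 kb and 2 Mb lay 3 of the 4 highest scores of replicate 1, in the clusters from 844276 to 846397 (2.25), from 626827 to 629022 (2.12) and from 795329 to 797706 (2.05). Each overlapped a cluster of replicate 2, and the scores there were 0.46, 0.77 and 1.24. Replicate 2 also had 1 of its 3 highest scores, 1.48, in this stretch, in the cluster from 873910 to 877350, and 1 of its 10 highest in the first 600 kb, from 236553 to 238955 (1.27).

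Both Hox intervals were sparse in replicate 1 and near the level of the arm in replicate 2. In RefSeq (Release 6) the Antennapedia complex holds, from low to high coordinates, lab, pb, zen2, zen, bcd, Dfd, Scr, ftz and Antp, of which lab, pb, Dfd, Scr and Antp are homeotic genes for the head and anterior thorax. Coordinates of that release differ from those of the files, so clusters were not assigned to single genes. The interval from 2480000 to 2830000 was covered to 1.95% in replicate 1, below all but 17 of the 269 windows, and to 7.24% in replicate 2, above 172 of them. The remainder of 3R, outside the low 2 Mb and both Hox intervals, was covered to 9.75% and 6.35%. The difference from it was −7.80 percentage points in replicate 1 and 0.89 in replicate 2. Its mean was −3.46 ± 6.14 (SD, n = 2), so the replicates went opposite ways against this remainder. Clusters at or above the median score of their list gave a mean of −1.60, and the replicate-set list gave −1.80. These points rest on unlike cover of 3R, 4.46% and 20.0%. In number the replicate-set list was not sparse here, with 126 clusters per Mb against 113 in the remainder. Its clusters were narrower here, with median widths of 1333 against 1589 bp. The sign in replicate 2 depended on the baseline. The block from 2000001 to 5000000, which contains the interval, was covered to 9.02% in replicate 1 and 8.56% in replicate 2. Against that block the interval was lower in both replicates.

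Replicate 1 placed 4 clusters in the Antennapedia interval, with scores from 0.63 to 0.98, and its longest empty stretch there was 147 kb. Replicate 2 placed 16, with scores from 0.47 to 0.87. The largest gathering in replicate 2 was between 2580000 and 2629999, where 7 clusters covered 21.0% of a 50 kb step in which replicate 1 had none. The only locus called in both replicates lay from 2737078 to 2739094 in replicate 1 (score 0.63, percentile 47.8). In replicate 2 it lay from 2737130 to 2739076 (score 0.47, percentile 10.8). This locus took in 25% of the 4 clusters of replicate 1 (0.63 to 80.6, exact binomial interval). It took in 6.25% of the 16 clusters of replicate 2 (0.16 to 30.2). Over 3R the shares were 35.8% and 45.5%, so the share of replicate 2 here was below that of the arm. Of the 44 replicate-set clusters in the interval, 1 overlapped both replicates, 14 replicate 2 alone, 3 replicate 1 alone and 26 neither. Over 3R the list had 14.7% in both, 15.9% in replicate 2 alone, 25.5% in replicate 1 alone and 43.9% in neither.

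The bithorax complex holds Ubx, abd-A and Abd-B from low to high coordinates, the homeotic genes for the posterior thorax and the abdomen. Its interval, from 12480000 to 12810000, was covered to 4.41% in replicate 1 and 5.64% in replicate 2, below the remainder of the arm by −5.34 and −0.71 percentage points (mean −3.03 ± 3.27, SD, n = 2). Cover was lower than that remainder in 2 of 2 replicates, and the mean difference was smaller than the spread between them. It was −0.30 points for clusters at or above the median score of their list, which covered a mean of 4.46% of 3R. In the replicate-set list, which covered 20.0% of 3R, it was −5.50, so points of these lists are not on 1 scale. That list was covered to 14.3% in the interval and 19.8% in the remainder. Replicate 1 had 7 clusters there and replicate 2 had 11, and 3 loci were called in both. These took in 42.9% of the clusters of replicate 1 there (9.9 to 81.6, exact binomial interval). In replicate 2 they took in 27.3% (6.0 to 61.0). Over 3R the shares were 35.8% and 45.5%, which lie inside these wide intervals. The middle one of the 3 loci was among the strongest of the arm. It ran from 12623443 to 12625692 in replicate 1, with a score of 1.70 (percentile 99.4), and from 12623452 to 12625635 in replicate 2, with a score of 1.30 (percentile 99.6). The edges of these clusters differed by 9 and 57 bp.

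The first of the other shared loci lay at the low edge of the interval, from 12480455 to 12482450 in replicate 1 (score 0.73) and from 12480857 to 12482454 in replicate 2 (0.76). The last lay from 12752373 to 12753741 in replicate 1 (0.95) and from 12751830 to 12753520 in replicate 2 (0.84). Replicate 2 also had clusters without a counterpart in replicate 1 from 12660654 to 12662163 (0.95) and from 12681894 to 12683421 (1.04, percentile 98.0), which were named after their values were seen. Its 11 clusters scored high for that list, with a median percentile of 84.5, while the 7 of replicate 1 had a median percentile of 64.8. Of the 28 replicate-set clusters here, 3 overlapped both replicates, 8 replicate 2 alone, 4 replicate 1 alone and 13 neither, counts to be read against the same shares over 3R.

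**Figure D3:**
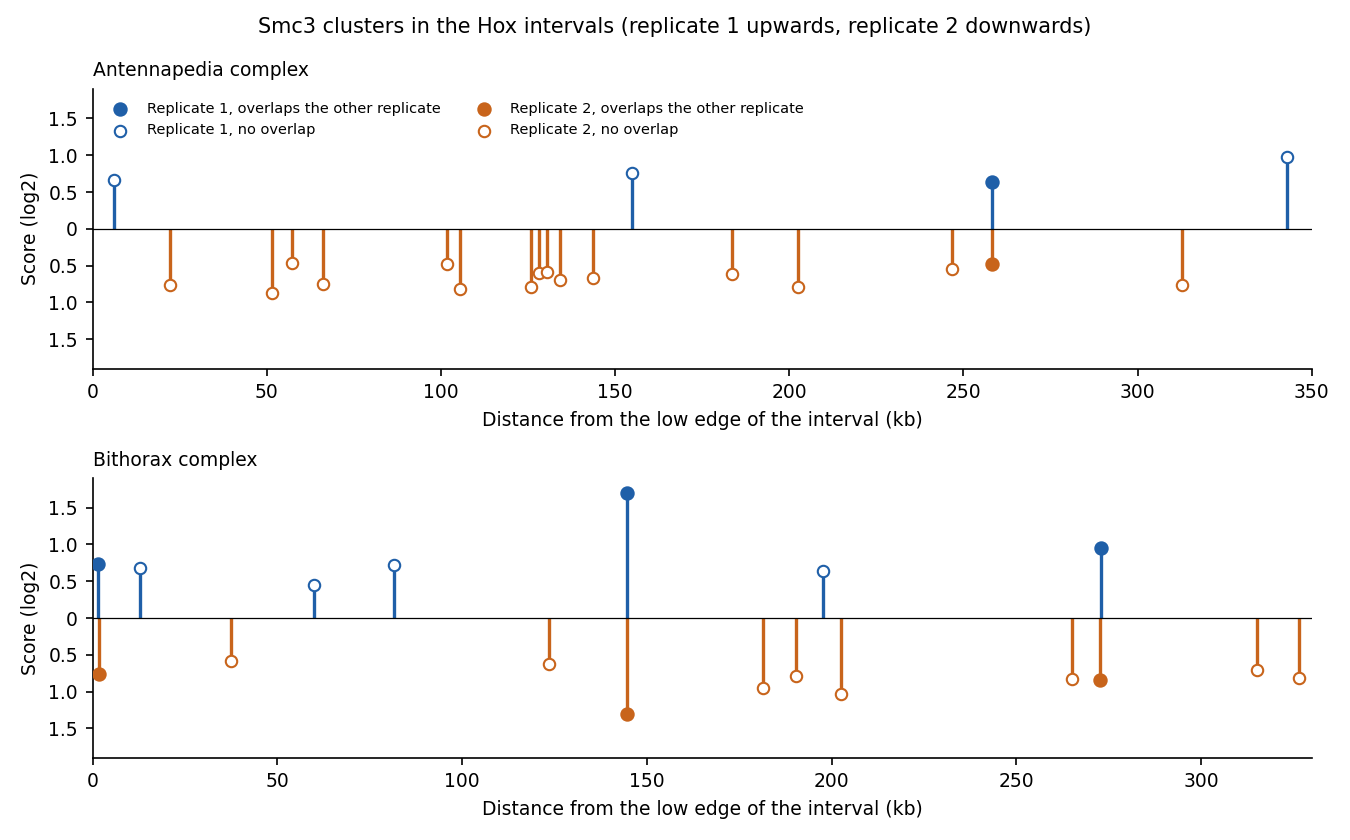
Score of every Smc3 cluster in the Hox intervals (log2) by distance of its midpoint from the low edge of the interval in kb, replicate 1 upwards and replicate 2 downwards, with filled points for clusters that overlap the other replicate. The tallest pair, 1.70 and 1.30, stands in the bithorax complex, and the Antennapedia complex has 16 clusters of replicate 2 against 4 of replicate 1.

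The next question was which 3R loci both replicates called. An overlap of 1 bp or more with the other list made a cluster shared. On 3R, 452 of 1263 were shared in replicate 1, a share of 35.8% (33.1 to 38.5, 95% exact binomial interval), where the share over all sequences was 51.8% and over the comparable parts of 2L, 2R, 3L and X 35.7%. In replicate 2, 456 of 1002 were shared, or 45.5% (42.4 to 48.7), against 54.6% over all sequences and 49.0% on those arms. The intervals cover counting error only. Beyond its own low 2 Mb, measured as the other arms were, 3R had shares of 34.6% in replicate 1 and 46.3% in replicate 2. In replicate 1 the other arms ran from 32.6% on 2R to 41.1% on 2L, and in replicate 2 from 39.5% on 2L to 65.2% on X, so 3R lay within the range of the single arms in both lists. When each cluster had to overlap the other by at least 50 percent, the shares on 3R were 31.4% and 39.5%, against 34.1% and 41.2% over all sequences. With midpoints at most 500 bp apart they were 28.3% and 35.6%, against 27.8% and 33.6%. Both lists covered 758 kb in common, equal to 29.6% of the cover in replicate 1 and 42.1% in replicate 2.

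The shared clusters formed 444 loci, or 16.5 per Mb, and 426 of these paired 1 cluster of each list. Their median width was 2112 bp, and the widest, from 12840 to 24014, joined 1 cluster of replicate 2 with 2 of replicate 1. Loci were a median of 35.8 kb apart. The longest stretch without one was 612 kb, from 25283414 to 25895350, and 65 of the 269 windows held none. Since pairs were chosen for overlapping, their offsets are limited by the widths of the clusters and are given as a description. In the 426 single pairs the midpoints differed by a median of 156 bp, the starts by 217 bp and the ends by 185 bp, and in 117 pairs (27.5%) both edges agreed within 200 bp. Replicate 1 had the wider cluster in 321 pairs and replicate 2 in 105.

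The scores of paired clusters resembled each other only weakly. Across the 426 pairs the Spearman correlation of the scores was 0.180 and Pearson's was 0.281, and without the pairs above percentile 95 in both lists, which left 416, Pearson's was 0.116. The correlation of widths was 0.238 (Spearman). These are descriptions over loci of 1 chromosome in a pair of samples.

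How often a cluster was shared varied with its score differently in the replicates. Sharing rose with score in replicate 1, while in replicate 2 only the lowest scores stood out, with more sharing than the rest. Each list was split on 3R into 4 quartiles by score. In replicate 1 the share found in replicate 2 was 21.3% (interval 16.9 to 26.2) in the lowest quartile, 25.0% and 34.2% in the middle ones and 62.7% (57.1 to 68.0) in the highest, and 84.4% of the 64 clusters in the top 5 percent. In replicate 2 the share found in replicate 1 was 68.8% (62.7 to 74.5) in the lowest quartile, 37.5% and 41.2% in the middle ones and 34.7% (28.8 to 40.9) in the highest. The top 5 percent of replicate 2, 50 clusters, were shared at 48.0% (33.7 to 62.6), against 45.5% of that list on 3R. Shared clusters of replicate 1 accordingly had a higher median score than the others, 0.75 against 0.61, and those of replicate 2 a lower one, 0.61 against 0.69.

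In both lists, by contrast, the widest clusters were shared more often than the narrowest. From the narrowest to the widest quartile the share was 20.6%, 25.6%, 44.0% and 52.8% in replicate 1. In replicate 2 it was 35.6%, 34.3%, 48.0% and 64.1%. An overlap of 1 bp is easier to meet for a wide cluster, and the size of this effect was not estimated. In replicate 2 the clusters of the lowest score quartile were not the wide ones, with a median width of 1582 bp against 1898 bp in the highest. The pattern by score was also present on the other arms. On the 4 other arms together, the shares of replicate 1 rose from 20.8% in the lowest to 58.7% in the highest score quartile. Those of replicate 2 were 65.9% in the lowest and 41.7% in the highest, and on each of these arms the lowest quartile of replicate 2 was the more shared of the pair.

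**Figure D4:**
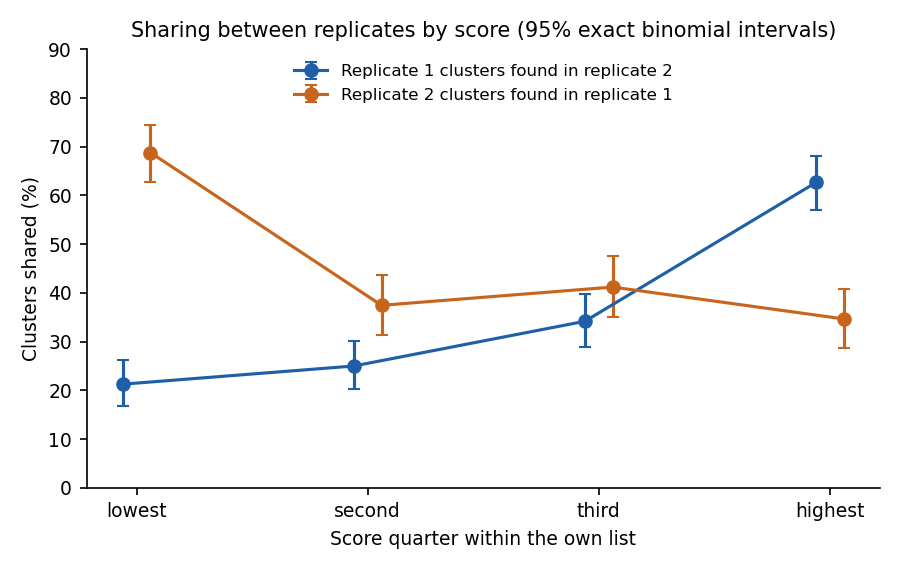
Percent of 3R clusters that overlap a cluster of the other replicate, by quartile of score within the own list, with 95% exact binomial intervals. Sharing rises with score in replicate 1, to 62.7%, and is highest in the lowest quartile of replicate 2, at 68.8%.

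Of the 444 loci, 70 (15.8%) had a cluster in the highest score quartile of replicate 1 and in the lowest of replicate 2, and 2 had the reverse. Over all 444 loci, 196 were in the highest quartile of replicate 1 and 166, or 37.4%, in the lowest of replicate 2. Among those 196 the share in the lowest quartile of replicate 2 was 35.7%, near that of all loci. For the reverse kind, the highest quartile of replicate 2 held 86 loci, or 19.4% of all. From the lowest quartile of replicate 1, 40, 15, 9 and 2 loci fell in the replicate 2 quartiles from lowest to highest. The last 2 were a smaller part of these loci than 19.4%, and the reason was not tested. The 70 loci were spread over 59 windows, with median scores of 0.97 in replicate 1 and 0.47 in replicate 2. The loci with the widest gap in score percentile were all of this kind. At the locus from 5699313 to 5701475 the score was 1.30 (percentile 97.5) in replicate 1 but 0.26 (percentile 0.50) in replicate 2. The locus from 11116825 to 11119189 scored 1.34 and 0.33, and that from 15507287 to 15509356 scored 1.27 and 0.35. In these 3, which were chosen for their difference in rank, the edges of the replicates lay 71 to 368 bp apart. The highest score quartile of both lists held 48 loci, which were 24.5% of the 196, where 19.4% of all loci were in the highest quartile of replicate 2. Of the 48 loci, 11 lay in the low 2 Mb, which held 42 of the 444.

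Among the loci high in both lists, the first was the one from 2002809 to 2004628, just beyond the low 2 Mb. Its clusters scored 2.18 in replicate 1 and 1.81 in replicate 2, the second highest of each list, and 1.35 in the replicate set. The bithorax locus at 12623443 came next, at percentile 99.8 of the replicate set. The locus from 795120 to 800218, which joined 2 clusters of replicate 1 to 1 of replicate 2, scored 2.05 and 1.24. The locus from 3556334 to 3559157 scored 1.45 and 1.96, the highest score of replicate 2, and at 1.65 was the highest of the replicate-set clusters that overlapped both replicates. The locus from 2905820 to 2908623 scored 1.37 and 1.23. Of these 5 loci, the first, the fourth and the fifth lay between 2 and 5 Mb.

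The remaining loci of the 10 lay further along the arm. At the locus from 17136397 to 17139028 replicate 1 scored 1.29 and replicate 2 scored 1.17. From 18073353 to 18075572 the scores were 1.24 and 1.27, and from 11067230 to 11070196 they were 1.41 and 0.98. The locus from 16772811 to 16775191 scored 1.20 and 1.02 and began at the same base in both lists. The last, from 9871434 to 9875923, scored 1.56 and 0.96. These 10 loci were 1820 to 5099 bp wide, and each was also in the replicate-set list.

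The extremes of the lists did not always coincide. The 10 highest clusters of replicate 1 all overlapped a cluster of replicate 2, yet the highest, at 844276, had a counterpart at percentile 8.58 of replicate 2, and that from 5007415 to 5009825 (1.64) had one at percentile 22.6 (0.55). Of the 10 highest of replicate 2, 9 overlapped replicate 1. The exception lay from 23689940 to 23692213, with a score of 1.36. Among all clusters of the arm, 35.8% of replicate 1 and 45.5% of replicate 2 overlapped the other list. In the top 5 percent by score the shares were 84.4% and 48.0%, and in the highest quartile 62.7% and 34.7%. The 9 of 10 therefore did not extend to the high scores of replicate 2 in general. The widest stretches inside 1 cluster of each replicate were from 17121465 to 17125485 (4021 bp, scores 1.81 and 0.88), from 14381568 to 14385171 (3604 bp, 0.98 and 0.76) and from 15750 to 19262 (3513 bp, 0.68 and 0.96).

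**Figure D5:**
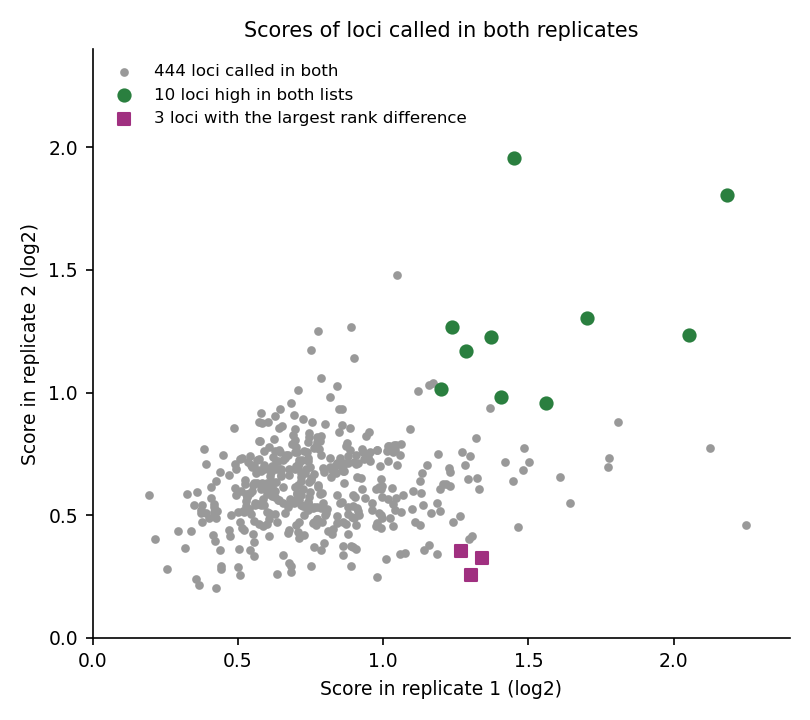
Score in replicate 2 against score in replicate 1 (both log2, each within its own list) for the 444 loci called in both, with the 10 loci high in both lists in green and the 3 loci with the largest difference in score percentile as squares. The cloud shows little slope, and the squares lie near 1.3 in replicate 1 and below 0.4 in replicate 2.

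The authors' replicate-set list was the densest on 3R, with 113 clusters per Mb that covered 20.0% of the bases. It touched all 444 loci and overlapped 96.4% of replicate 1 and 94.1% of replicate 2, counted in clusters. Of its 3052 clusters, 14.7% (13.5 to 16.0) overlapped both replicates, against 19.5% of the list over all sequences. Replicate 1 alone was overlapped by 25.5% (22.7% over all sequences) and replicate 2 alone by 15.9% (16.3%). The other 43.9% (42.1 to 45.7) overlapped neither, against 41.5% over all sequences. The median width was 2203 bp for clusters found in both and 1215 bp for those found in neither, with median scores of 0.58 against 0.47. The narrowest cluster of the replicate-set list was 1001 bp wide, against 1301 bp in each replicate list. Most clusters found in neither were therefore narrower than any cluster of the replicates. Whether this difference between the lists accounts for the lack of overlap was not tested.

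The 4 highest scores of the replicate-set list on 3R lay outside the replicates' lists. They were in clusters from 21150144 to 21151144 (3.22), 17127980 to 17129390 (2.73), 13863664 to 13864712 (2.09) and 11432778 to 11434018 (2.00), and no cluster of either replicate overlapped them. Their widths were 1001, 1411, 1049 and 1241 bp, where the narrowest cluster of either replicate was 1301 bp. Of the 50 highest scores of that list, 36 were in clusters found in both replicates and 11 in clusters found in neither.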

How the data were processed

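Smc3 ChIP-seq lists were available for 2 ChIP samples, with 1 replicate-set list for the series. The submitters' processing notes name Bowtie 0.12.7, and the file headers place all coordinates on FlyBase release 5. Not given in the sources used here are the caller, its cut-offs, the treatment of repeated sequence and the way replicates were combined. The unit of the authors' deposited score was taken to be log2: 2 to the power of score differences within a list gave ratios of whole numbers (denominators up to 3000, tolerance 1e-12) for 99.9%, 98.2% and 99.6% of clusters in replicate 1, replicate 2 and the replicate set. The control behind the ratio is not stated, and the sequencing depth is unknown.

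Clusters on 3R were taken by midpoint and kept as deposited, with cover counted in bases, positions 1-based. The 269 windows leave out the last 5053 bp. Percentiles are ranks of score within a list on 3R. Loci are groups of clusters of both replicates joined by overlaps of at least 1 bp. Regions named by rule were the 10 loci with the highest lower-of-both percentile, the 3 widest shared stretches and the 3 largest percentile differences. The 5 fullest and emptiest windows, the longest gaps and the shared Hox loci were also named by rule. Every other region named, such as the highest clusters of a list, counts as chosen after its values were seen. The members and lists were chosen with earlier results of these data known.

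With 1 group of 2 replicates and no other group with values, no test between groups was possible, so values are given per replicate with their SD. Separate collections of larvae are not stated for the replicates, whose spread may be technical. Functions were tested on simulated clusters. The work used matplotlib 3.10.9, scipy 1.17.1, pandas 2.3.3 and numpy 2.4.6 under Python 3.11.15.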

Additional observations from a re-analysis of the deposited data

How the results depend on the processing

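The alternatives covered 59 combinations of result and setting. Of these, 38 kept their direction and stayed within the spread between replicates, the binomial interval, a factor of 1.5 or, for the window correlation, 0.1. For cover and the cover differences, leaving out 1 replicate always stays within the spread between the replicates. Those settings could show at most a change of sign, so their place among the 38 is no evidence of stability. No paired analysis was possible because values of the Input samples, which carry the same replicate numbers, were not analysed here, and the ChIP samples form a single group. With 1 replicate left out, the number of clusters ranged from 1002 to 1263 and cover from 6.68% to 9.51%. The low-end difference ranged from −0.74 points without replicate 2 to 4.38 without replicate 1, the Antennapedia difference from −7.80 without replicate 2 to 0.89 without replicate 1, and the bithorax difference from −5.34 to −0.71. The first and second of these changed sign.

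Keeping only clusters at or above the median score of their list left a mean of 566.5 clusters, cover of 4.46%, 143 loci and shared shares of 23.4% and 28.9%, and moved the bithorax difference from −3.03 to −0.30 points, against −5.50 in the replicate-set list. Reciprocal overlap gave shares of 31.4% and 39.5%, and midpoints within 500 bp gave 28.3% and 35.6%. Under these rules the lowest score quartile of replicate 2 was still shared more (62.4% and 61.2%) than the highest (26.3% and 23.1%). A low end of 500 kb raised the difference to 8.28 points, and one of 600 kb, chosen after seeing the data, to 7.66. The replicate-set list gave cover of 20.0%, so its differences in points rest on a larger base. The window correlation fell to 0.00323 with windows of 500 kb and was 0.270 with windows of 50 kb. The cause was not tested. Depth is unknown, so no limit that needs it is given.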
